A study of Mus musculus with 6 samples.

Results

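The 10 transcripts of iron and haem transport and storage described here were measured in mouse liver: the transferrin, transferrin receptor and divalent metal transporter genes *Trf*, *Tfrc* and *Slc11a2*, the iron sensor gene *Aco1*, the ferroportin and ceruloplasmin genes *Slc40a1* and *Cp*, the ferritin genes *Fth1* and *Ftl1*, and the scavenger genes *Hp* and *Hpx*. They were taken by gene symbol, and all 10 were found once each among the 18720 rows of the deposited tables. The R159 group (n = 3 libraries) came from the livers of male C57BL/6 mice of 1 year on a high-fat diet, which were injected intraperitoneally with R159 2 times a week for 12 weeks. The vehicle group (n = 3 libraries) had the same sex, age, strain, diet and injection schedule with the vehicle alone, so the diet was common to both groups. R159 is known here only by its code name, and the series title concerns a non-canonical arm of signalling by gp130, a receptor subunit used by interleukin-6 and related cytokines. Whether every library is a different animal is not stated outright in the labels, and the spread behind each p-value may be partly technical.

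Iron travels in blood bound to transferrin, enters cells with the transferrin receptor, leaves the endosome through the divalent metal transporter, and is stored in ferritin, a shell of heavy and light subunits. Ferroportin is the known cellular iron exporter, and ceruloplasmin oxidises the exported iron so that transferrin can take it up. The liver stores iron, secretes transferrin, ceruloplasmin, haptoglobin and haemopexin, and makes hepcidin, the hormone that removes ferroportin from the cell surface. Iron regulatory proteins, one of which is the *Aco1* product, bind hairpins called iron-responsive elements when iron is scarce. Binding in a 5′ untranslated region blocks translation, as in ferritin and ferroportin mRNA, and binding in the 3′ untranslated region of *Tfrc* mRNA protects that mRNA from decay.

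A search of the annotated coding transcripts found such hairpins in 4 of the 10 genes, and the sites are shown because hairpins of this kind are the known binding sites of the iron regulatory proteins. The search looked, on the transcript strand only, for a C, 5 bases of any kind, the loop CAGTGN and 5 bases that pair with the 5 before the loop, G-T pairs allowed. The 6 loop bases are in capitals, in DNA letters, 5′ to 3′, from the GENCODE M21 transcripts (build GRCm38).
*Fth1*, 5′ untranslated region, chr19:9982732-9982760, plus strand: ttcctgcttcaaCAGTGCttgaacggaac
*Ftl1*, 5′ untranslated region, chr7:45459779-45459807, minus strand: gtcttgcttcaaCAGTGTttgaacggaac
*Slc40a1*, 5′ untranslated region, chr1:45925465-45925493, minus strand: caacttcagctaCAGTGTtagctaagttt
*Tfrc*, 3′ untranslated region, chr16:32631219-32631247, plus strand: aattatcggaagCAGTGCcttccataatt
*Tfrc*, 3′ untranslated region, chr16:32631598-32631626, plus strand: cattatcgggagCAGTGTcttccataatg
*Tfrc*, 3′ untranslated region, chr16:32631663-32631691, plus strand: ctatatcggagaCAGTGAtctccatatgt
*Tfrc*, 3′ untranslated region, chr16:32631710-32631738, plus strand: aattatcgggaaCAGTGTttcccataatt

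The pattern was rare: of 21901 genes searched by their representative transcript, 21 (0.0959%) held it in the 5′ and 110 (0.502%) in the 3′ untranslated region. The bases on either side of the loop were alike in *Fth1* and *Ftl1*, and *Slc40a1* had another stem around the loop letters of *Ftl1*. No match was found in the untranslated regions of the other 6 genes, which says only that these letters are not there. *Slc11a2* is known to have a less regular element in one of its isoforms. A match is a description of sequence and not of binding in these livers.

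Values are normalised estimated counts. Fold changes are log2, R159 minus vehicle, of value + 1, and a gene is called when limma's Benjamini-Hochberg adjusted p over all 16594 tested genes is under 0.05. In R159 livers 4 of the 10 genes were called lower, *Slc40a1*, *Slc11a2*, *Tfrc* and *Aco1*, and 0 were called higher (1 more, *Cp*, had an unadjusted p under 0.05). Over all tested genes 14.2% were called lower and 12.8% higher, 27% in either direction. The count of 4 was 0 without vehicle replicate 2, 1 without vehicle replicate 3, and 2 without vehicle replicate 1 or without R159 replicate 3; without vehicle replicate 2 limma called 918 genes higher and 923 lower in all. The groups did not overlap for 6 of the 10 genes, all 6 lower in R159. Of all tested genes 23.6% were lower and 22.5% higher in R159 without overlap. The median fold change was -0.61 over the 10 genes and 0.001 over all tested genes. After a trend with transcript length, described below, was removed, these medians were -0.45 and -0.010.

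The libraries differed in ways that touch every value here. Estimated depth was 51.26 to 55.74 M reads in R159 libraries and 65.96 to 76.69 M reads in vehicle libraries. Fold changes followed transcript length across 11027 coding genes (Spearman's rho = -0.502, over genes, which are not independent replicates): short transcripts were in general higher and long ones lower in R159. The deviation of a library from the mean of all 6 had rho with length of -0.00176, -0.593 and -0.482 in R159 libraries in order of replicate, and of 0.34, 0.469 and 0.51 in vehicle libraries. Mitochondrially encoded transcripts made up 8.42% to 13.6% of the values in R159 libraries and 5.01% to 7.43% in vehicle libraries. Across genes, R159 replicate 2 correlated with the vehicle libraries at r = 0.910 to 0.918, and the other R159 libraries did so at 0.937 to 0.942. Within groups r was 0.939 to 0.949 among R159 libraries and 0.979 to 0.986 among vehicle libraries. The part of length in each result was not tested as a cause. Each member is therefore set beside coding genes within 10% of its length and beside its value after the length trend was removed.

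**Figure D1:**
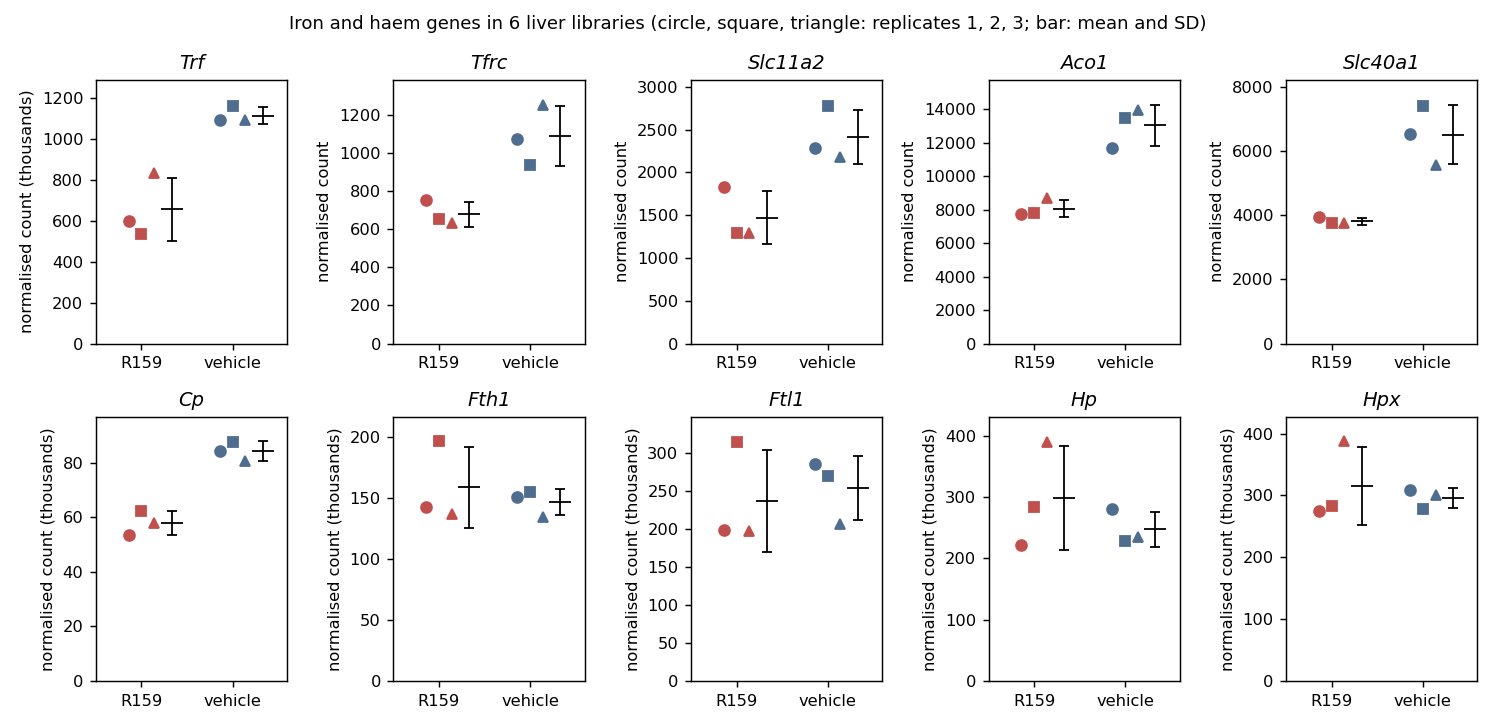
Normalised count (y axes, linear from 0, scaled as each axis states) of the 10 iron and haem genes in R159 and vehicle libraries; circles, squares and triangles are replicates 1, 2 and 3, and the bar at the right of each group is the mean with its SD (n = 3). Every R159 library lies below every vehicle library for *Trf*, *Tfrc*, *Slc11a2*, *Aco1*, *Slc40a1* and *Cp*, and the groups overlap for *Fth1*, *Ftl1*, *Hp* and *Hpx*.

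*Trf*, which encodes transferrin, the iron carrier of plasma, was one of the most abundant liver transcripts, at rank 4 of the tested genes by mean value. It had 598484, 534997 and 831330 normalised counts in R159 livers in order of replicate, against 1090000, 1160000 and 1090000 in vehicle livers, which are deposited to 3 significant digits. The groups did not overlap, R159 replicate 3 was the highest of its group, and the vehicle libraries were close together. The transcript took 1.01% of all values in R159 libraries and 1.97% in vehicle libraries. These shares also depend on the sum of all values in a library. That sum was 55.59 to 73.71 M in R159 and 54.78 to 59.12 M in vehicle libraries. The fold change was -0.79 (95% interval -1.80 to 0.22), and limma did not call it (adjusted p = 0.211). With the variance trend left out limma called it at the same fold change (adjusted p = 0.0498). At its length of 2571 nt 14% of 1275 coding genes were called lower, and the value after the length trend was removed was -0.70 (limma adjusted p = 0.242). *Gm20425*, an annotated gene on the same strand, overlaps *Trf*.

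*Tfrc* encodes the transferrin receptor, which carries iron-loaded transferrin into the cell. It had 752, 653 and 630 normalised counts in R159 livers, against 1073, 935 and 1249 in vehicle livers. The groups did not overlap, and the gap lay between R159 replicate 1 and vehicle replicate 2. The mean was 678 ± 65.0 in R159 and 1086 ± 157 in vehicle (SD, n = 3 each), a fold change of -0.67 (SE 0.18, limma adjusted p = 0.0237). At its length of 4890 nt, the longest of the 10, 34% of 1117 coding genes were called lower, with a median fold change of -0.41. After the length trend was removed *Tfrc* had -0.26 (limma adjusted p = 0.251). The call was also lost when R159 replicate 3 (limma adjusted p = 0.0564) or vehicle replicate 1, 2 or 3 (limma adjusted p = 0.0743, 0.0553 and 0.0983) was left out, and without the variance trend.

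*Slc11a2* encodes the divalent metal transporter DMT1, which passes iron from the endosome to the cytosol. It had 1830, 1295 and 1294 normalised counts in R159 livers, against 2285, 2774 and 2175 in vehicle livers. R159 replicate 1 was nearest to the vehicle libraries, and the groups did not overlap. The fold change was -0.72 (SE 0.19, limma adjusted p = 0.0232). At its length of 3025 nt 20.2% of 1413 coding genes were called lower, and after the length trend was removed the value was -0.54 (limma adjusted p = 0.0647). Leaving out any library but R159 replicate 1 also ended the call. The limma adjusted p was then 0.0604 and 0.0631 without R159 replicates 2 and 3, and 0.0597, 0.108 and 0.0524 without vehicle replicates 1 to 3. The call was lost without the variance trend as well. *Gm5475* is annotated on the opposite strand of this locus.

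*Aco1* encodes the cytosolic aconitase that, without its iron-sulphur cluster, is the RNA-binding iron regulatory protein 1. It had 7729, 7803 and 8687 normalised counts in R159 livers, against 11670, 13492 and 13986 in vehicle livers. Both groups were tight and well apart. The mean was 8073 ± 533 in R159 and 13049 ± 1220 in vehicle (SD, n = 3 each), a fold change of -0.69 (SE 0.15, limma adjusted p = 0.0131). At 3832 nt 26.9% of 1293 coding genes were called lower, and the value with the length trend removed was -0.38 (limma adjusted p = 0.0644). The call was lost without vehicle replicate 2 (limma adjusted p = 0.0731) and without vehicle replicate 3 (limma adjusted p = 0.0573).

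*Slc40a1*, the gene of ferroportin, had the smallest p of the 10. It had 3939, 3750 and 3748 normalised counts in R159 livers, against 6554, 7420 and 5581 in vehicle livers. The R159 libraries were close together, with a coefficient of variation of 2.89%, and every one of them was below the vehicle libraries. The mean was 3812 ± 110.0 in R159 and 6518 ± 920 in vehicle (SD, n = 3 each), a fold change of -0.76 (SE 0.16, limma adjusted p = 0.00943). At 3370 nt 23.8% of 1405 coding genes were called lower, with a median fold change of -0.27. *Slc40a1* was the one member of the 10 still called after the length trend was removed (-0.52, limma adjusted p = 0.0392, where 8.66% of genes were called lower and 9.7% higher). Its call was lost without vehicle replicate 2 (-0.67, limma adjusted p = 0.0602).

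Ferroportin is made in hepatocytes and in Kupffer cells, the macrophages of the liver, which recycle iron from red cells. Of 12 Kupffer cell and macrophage markers 3 were called lower and 0 higher. The shares over all tested genes, for these markers and those below, were 14.2% lower and 12.8% higher. The summed value of the 12 markers was 16983 to 21247 in R159 libraries and 21235 to 31949 in vehicle libraries. *Adgre1*, a macrophage surface receptor gene, had 221, 210 and 471 normalised counts in R159 livers, against 865, 1158 and 879 in vehicle livers, whereas *Clec4f*, a Kupffer cell lectin, had 3366, 4808 and 3080 in R159 livers, against 1961, 4897 and 3421 in vehicle livers. The list went both ways, with a median fold change of 0.01. *Marco*, a macrophage scavenger receptor gene, had 1375, 808 and 2874 in R159 livers, against 20.8, 397 and 622 in vehicle livers (3.07, limma adjusted p = 0.0619). *Timd4*, a marker of resident Kupffer cells, had 215, 216 and 343 in R159 livers, against 10.8, 118 and 147 in vehicle livers (2.09, limma adjusted p = 0.0872). Neither was called, and neither overlapped between groups. With the length trend removed 4 of the 12 were called lower and 0 higher. None of the 12 markers was at 0 in any library. Their part in the *Slc40a1* result was not tested, and in these bulk samples fewer cells of a type and less RNA per cell cannot be told apart. The 10 hepatocyte markers summed to 5081219 to 8478066 in R159 libraries and 4280321 to 6147753 in vehicle libraries, with 1 called higher and 2 lower. Stellate cell markers had 3 of 8 lower, with sums of 13124 to 28064 in R159 libraries and 18190 to 32057 in vehicle libraries. The stellate list is long, 5379 nt at the median. In the bin of coding genes with a median length of 5517 nt 36.9% were called lower. Of the endothelial markers 0 of 9 were called, and of the neutrophil markers 0 of 7. With the length trend removed 1 stellate marker was called lower and 2 endothelial markers higher. No hepatocyte or neutrophil marker was then called. The endothelial sums were 8306 to 10927 in R159 and 8483 to 11729 in vehicle, and the neutrophil sums 227 to 1216 in R159 and 126 to 330 in vehicle. The 3 genes (of 12002 with a mean of at least 100) whose profile over the 6 libraries was closest to that of *Slc40a1* were *Spats2*, *Vars* and *Sqstm1*, with root mean square differences of the centred log2 values of 0.0524, 0.0621 and 0.0693.

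*Cp* encodes ceruloplasmin, the copper-bearing ferroxidase that the liver secretes. It had 53668, 62286 and 57758 normalised counts in R159 livers, against 84478, 87818 and 80652 in vehicle livers. The groups did not overlap and their spreads were narrow, 7.44% and 4.25% by coefficient of variation in R159 and vehicle. The fold change was -0.54 (SE 0.20), which limma did not call after adjustment (adjusted p = 0.0752). At 4029 nt 29% of 1278 coding genes were called lower, and with the length trend removed the value was -0.22 (limma adjusted p = 0.429). *Hps3* overlaps *Cp* on the opposite strand, and it is not given in the sources used here whether counting used strand.

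**Figure D2:**
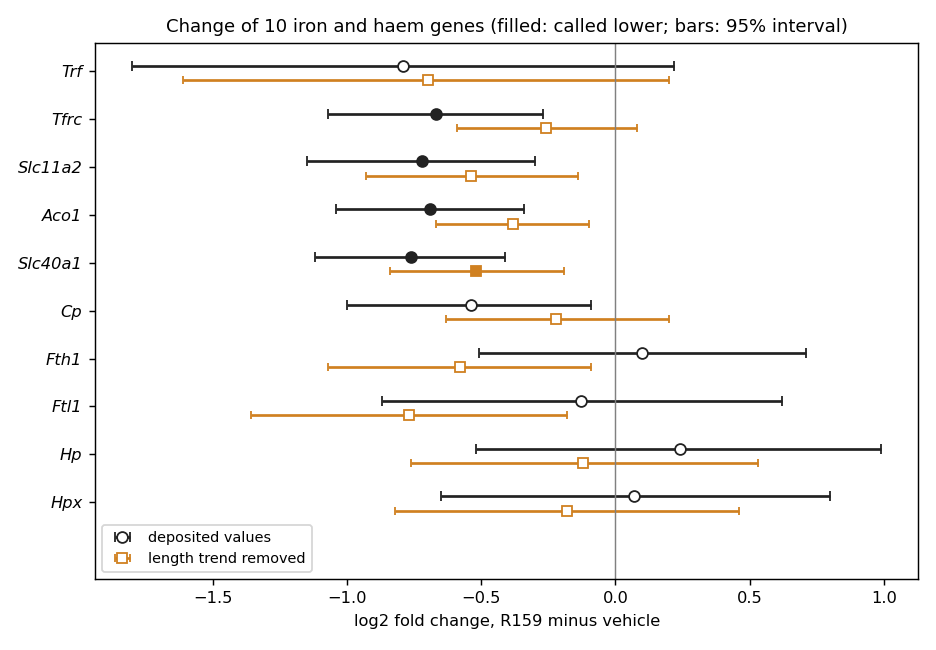
Log2 fold change, R159 minus vehicle (x axis), of the 10 genes (rows) with 95% intervals, from the deposited values (black circles) and after the length trend was removed (orange squares); filled symbols were called lower by limma. Black values run from -0.79 for *Trf* to 0.24 for *Hp*, and *Slc40a1* is filled in both.

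Neither ferritin gene was called in either direction. *Fth1*, the heavy subunit with ferroxidase activity, had 142241, 196662 and 136730 normalised counts in R159 livers, against 150525, 154717 and 134360 in vehicle livers. *Ftl1*, the light subunit, had 198235, 313898 and 196926 in R159 livers, against 285413, 269890 and 206453 in vehicle livers. R159 replicate 2 was the highest of all 6 libraries for both subunits, and the groups overlapped. The other R159 libraries lay below every vehicle library for *Ftl1* and within the vehicle range for *Fth1*.

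*Fth1* had a fold change of 0.10 (95% interval -0.51 to 0.71, limma adjusted p = 0.814) and *Ftl1* of -0.13 (95% interval -0.87 to 0.62, limma adjusted p = 0.802). The *Ftl1* interval holds the fold changes found for *Tfrc* and *Slc40a1*, and the *Fth1* interval does not. Both transcripts are short, 929 and 968 nt. Of 319 coding genes near the length of *Fth1* 48.6% were called higher, with a median fold change of 0.72, and of 347 near that of *Ftl1* 48.4%, with a median of 0.69. Both ferritin transcripts lay below these medians. After the length trend was removed *Fth1* had -0.58 (95% interval -1.07 to -0.09, limma adjusted p = 0.0914) and *Ftl1* -0.77 (95% interval -1.36 to -0.18, limma adjusted p = 0.0713). Neither was called, and the direction for *Fth1* turned, as it did without R159 replicate 2 (-0.07).

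The ferritin genes have near-identical copies, and reads can be divided among them uncertainly. *Ftl1-ps1*, a processed copy, was listed at 10739, 14725 and 10249 in R159 livers and at 15176, 13923 and 11251 in vehicle livers, in the same order of libraries as *Ftl1* within each group. *Fth1-ps*, *Ftl1-ps2* and *Ftl2-ps* were all under 50. *Gm22133* and *Gm10252* are annotated within or across *Ftl1*.

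Within each library the log2 ratio of summed ferritin to *Tfrc* counts was 8.82, 9.61 and 9.05 in R159 livers, against 8.66, 8.82 and 8.09 in vehicle livers. The groups overlapped. Its mean difference was 0.63, with p = 0.2 in a two-sided exact permutation test, where 3 against 3 libraries cannot go below 0.1. With the length trend removed the difference was -0.44 (exact permutation p = 0.1, two-sided, the smallest possible), so its direction turned. The log2 ratio of *Fth1* to *Ftl1* was -0.48, -0.67 and -0.53 in R159, against -0.92, -0.80 and -0.62 in vehicle, a difference of 0.22 (exact permutation p = 0.2, two-sided). It was 0.19 with the length trend removed, and the groups overlapped in R159 replicate 2.

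*Hp* encodes haptoglobin, which binds free haemoglobin, and *Hpx* haemopexin, which binds free haem; both rise in plasma in the acute phase response. *Hp* had 221119, 283957 and 389982 normalised counts in R159 livers, against 280468, 227643 and 234569 in vehicle livers. *Hpx* had 274055, 282907 and 388194 in R159 livers, against 308232, 278327 and 301169 in vehicle livers. R159 replicate 3 was the highest library for both. For *Hp* R159 replicate 2 was also above every vehicle library, and R159 replicate 1 was below them all. For *Hpx* R159 replicate 1 was below every vehicle library, and R159 replicate 2 lay within the vehicle range.

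The fold change was 0.24 for *Hp* (95% interval -0.52 to 0.99, limma adjusted p = 0.625) and 0.07 for *Hpx* (95% interval -0.65 to 0.80, limma adjusted p = 0.883). Without R159 replicate 3 *Hp* had 0.02 and *Hpx* -0.09. The scavenger transcripts lay near the medians of coding genes of their length, 0.33 at 1345 nt and 0.25 at 1499 nt. With the length trend removed they had -0.12 and -0.18. R159 replicate 3 was not the highest for every acute phase transcript. *Saa1*, which encodes serum amyloid A, had 76069, 5677 and 26237 normalised counts in R159 livers, against 10274, 6050 and 14908 in vehicle livers.

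**Figure D3:**
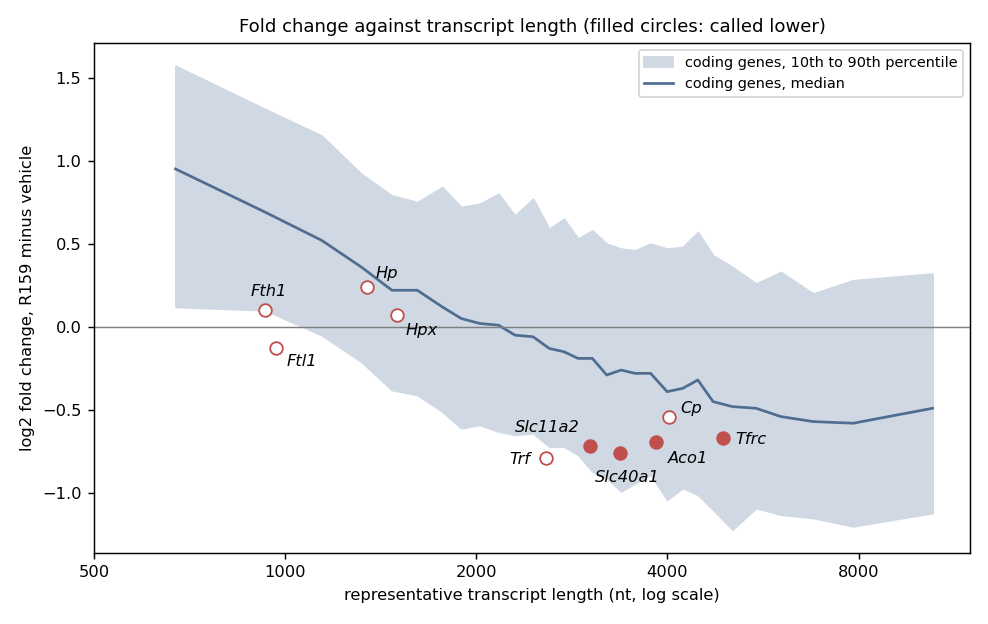
Log2 fold change, R159 minus vehicle (y axis), against representative transcript length in nt (x axis, log scale); the line and band give the median and the 10th to 90th percentile of 11027 coding genes in 30 bins, and the circles are the 10 iron and haem genes, filled where called lower. *Ftl1* and *Trf* lie below the band and *Fth1* at its lower edge, *Hp* and *Hpx* lie within 0.2 of the median, and the other 5 genes lie between the median and the lower edge.

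Per kilobase of representative transcript, the 10 genes spanned more than 3 orders of magnitude. *Trf* had 254740 and 433035 normalised counts per kb in R159 and vehicle means, and *Tfrc* had 139 and 222. In all 6 libraries *Cp*, *Aco1*, *Slc40a1*, *Slc11a2* and *Tfrc* held places 6 to 10 in that order. Over all 6 libraries together *Aco1* (2017 to 3650 per kb) and *Slc40a1* (1112 to 2202 per kb) overlapped, while within R159 (2017 to 2267 and 1112 to 1169) and within vehicle (3045 to 3650 and 1656 to 2202) they did not. *Trf* was first in every vehicle library. In R159 it was first in replicates 1 and 3 and held place 4 in replicate 2, where *Ftl1*, *Fth1* and *Hp* were above it. *Trf* spanned 208089 to 323349 per kb in R159, and *Ftl1* 203436 to 324275. *Ftl1*, *Hp*, *Hpx* and *Fth1* overlapped in R159, at 147180 to 324275 per kb. In vehicle the same genes lay at 144629 to 294848 per kb, with *Ftl1* in place 2 and *Fth1* in place 5 in each library.

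Other genes with the hairpin pattern were counted in the same way. Of 18 other genes with a 5′ match 14 were tested, and 0 were called higher and 2 lower (14.3% lower, median fold change -0.02). Of 109 other genes with a 3′ match 83 were tested, and 5 were called higher and 29 lower (34.9% lower, median -0.43). The second set is long, 4322 nt at the median, and in the bins of coding genes with median lengths of 4229 and 4467 nt 29.2% and 30.4% were called lower.

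Among 21 tested genes of iron uptake, export and regulation, 4 were called lower and 0 higher, with a median fold change of -0.18. Shares over all tested genes, for this list and those below, were 14.2% lower and 12.8% higher. The list is long, 4065 nt at the median, and its median fold change was 0.07 with the length trend removed. *Steap3*, the ferrireductase that works beside the transferrin receptor in the endosome, had 990, 1155 and 1716 normalised counts in R159 livers, against 2204, 2656 and 2317 in vehicle livers (-0.93, limma adjusted p = 0.0151). *Steap4*, a related metalloreductase, had -0.98 (limma adjusted p = 0.00717, and 0.0194 with the length trend removed). *Ncoa4*, the receptor that delivers ferritin to autophagy, had 5579, 4733 and 5684 in R159 livers, against 7786, 8330 and 8638 in vehicle livers (-0.63, limma adjusted p = 0.0161, and 0.0948 with the length trend removed). *Steap3* lost its call with the length trend removed (-0.49, limma adjusted p = 0.168) and without vehicle replicate 2, and *Ncoa4* without vehicle replicate 2 or 3.

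The second transferrin receptor gene *Tfr2* had -0.11 (limma adjusted p = 0.705), and *Slc39a14*, a carrier of iron not bound to transferrin, -0.22 (limma adjusted p = 0.537). *Ireb2*, which encodes iron regulatory protein 2, had -0.30 (limma adjusted p = 0.183), and *Fbxl5*, which targets that protein for degradation, -0.42 (limma adjusted p = 0.0965). *Lcn2*, which binds iron-carrying siderophores, had -0.63 (limma adjusted p = 0.362). None of these was called. The groups did not overlap for *Ireb2* and *Fbxl5*, as for 23.6% of all tested genes in that direction. For *Ireb2* the gap was narrow, 2386 in the highest R159 library and 2399 in the lowest vehicle library, and its direction turned with the length trend removed (0.18).

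The transcript of hepcidin, the hormone that acts on ferroportin, was called higher, and the hormone itself was not measured. *Hamp* had 22824, 66112 and 33177 normalised counts in R159 livers, against 5764, 7493 and 28110 in vehicle livers. Its fold change was 1.79 (SE 0.58, limma adjusted p = 0.0472). Vehicle replicate 3 lay within the R159 range. *Hamp* is a very short transcript of 410 nt, had 0.44 with the length trend removed (limma adjusted p = 0.636). It was not called without R159 replicate 2 or 3 or vehicle replicate 1 or 2. The same held for its close copy *Hamp2* (2.61, limma adjusted p = 0.0367, and 0.325 with the length trend removed). Of 17 tested genes of the hepcidin axis 2 were higher and 6 lower, among them the bone morphogenetic protein receptor gene *Bmpr2* (-1.08, limma adjusted p = 0.00517) and the hemojuvelin partner gene *Neo1* (-1.03, limma adjusted p = 0.00683). Both are long transcripts, and with the length trend removed neither was called (*Bmpr2* -0.63, limma adjusted p = 0.0724, and *Neo1* -0.50, limma adjusted p = 0.108). In that setting 2 others of the 6 stayed called lower. Also, 1 gene of the axis, neither *Hamp* nor *Hamp2*, was then called higher. *Hfe*, the haemochromatosis gene, had -0.22 (limma adjusted p = 0.254).

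Of 12 haem synthesis genes 4 were called higher and 0 lower, with a median of 0.30, and of 0.07 with the length trend removed. *Uros* had 2136, 2029 and 1996 normalised counts in R159 livers, against 990, 952 and 914 in vehicle livers. The groups were far apart (1.11, SE 0.14, limma adjusted p = 0.00343). *Ppox* had 2748, 1897 and 1766 in R159 livers, against 922, 941 and 811 in vehicle livers (1.24, limma adjusted p = 0.00476). Both encode enzymes of the middle and late steps of the pathway and stayed called with the length trend removed (limma adjusted p = 0.0052 and 0.0139). *Alas1*, the rate-limiting enzyme in liver, had 11283, 9928 and 13225 in R159 livers, against 41799, 15138 and 13594 in vehicle livers, and vehicle replicate 1 stood apart (-0.85, limma adjusted p = 0.126). *Alas2*, its erythroid relative, had 0.39 (limma adjusted p = 0.19) and *Fech*, which inserts the iron, -0.43 (limma adjusted p = 0.129).

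Of 17 genes of haem uptake, export and breakdown 2 were called higher and 3 lower. Their median was -0.03, and 0.02 with the length trend removed. *Slc48a1*, a haem carrier of the endosome and lysosome, had 2082, 2082 and 2234 normalised counts in R159 livers, against 3837, 3922 and 3631 in vehicle livers (-0.83, limma adjusted p = 0.00496). *Flvcr2* had 233, 135 and 213 in R159 livers, against 478, 492 and 489 in vehicle livers (-1.36, limma adjusted p = 0.00659). Both stayed called with the length trend removed (limma adjusted p = 0.00607 and 0.0147). *Blvra*, which turns biliverdin into bilirubin, and *Fabp1*, a fatty acid carrier that also binds haem, were higher (0.67 and 1.46, limma adjusted p = 0.0418 and 0.0229). Neither was called with the length trend removed or without any 1 of the vehicle libraries, and *Blvra* also not without R159 replicate 2 or 3.

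The receptors for the scavenger complexes were not called. *Lrp1*, the receptor for haem-loaded haemopexin, had -0.48 (limma adjusted p = 0.227). *Cd163*, the macrophage receptor for haptoglobin with haemoglobin, had 408, 299 and 203 normalised counts in R159 livers, against 4.98, 106 and 240 in vehicle livers (2.45, SE 1.12, limma adjusted p = 0.13). Vehicle replicate 1 was far the lowest library; the fold change was 0.87 without it and 3.53 without vehicle replicate 3. The haem oxygenase gene *Hmox1* had -0.46 (limma adjusted p = 0.249) and the haem exporter gene *Flvcr1* -0.03 (limma adjusted p = 0.96). Of 8 tested erythroid markers, 6 were called higher and 0 lower, and their summed value was 40878 to 60079 in R159 libraries and 12957 to 21877 in vehicle libraries. These are mostly short transcripts, and with the length trend removed 2 of the 8 were called higher and 0 lower. Erythroid cells also make haem and transferrin receptor, and the part of these cells in the results above was not tested.

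Iron-sulphur cluster assembly had 7 genes higher and 4 lower of 21, with a median of 0.34, and of 0.11 with the length trend removed. *Bola3* had 3884, 6125 and 4151 normalised counts in R159 livers, against 2457, 2306 and 2171 in vehicle livers (1.00, limma adjusted p = 0.00787, and 0.00782 with the length trend removed). *Isca2* had 0.96 (limma adjusted p = 0.00549, and 0.24 with the length trend removed). *Hspa9*, the mitochondrial chaperone of cluster transfer, was lower (-0.99, limma adjusted p = 0.00803) and stayed called with the length trend removed (limma adjusted p = 0.0147).

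Of 15 acute phase transcripts 3 were called higher and 0 lower, among them *Saa3* (1.56, limma adjusted p = 0.00799) and the pentraxin gene *Apcs* (1.09, limma adjusted p = 0.014). *Apcs* lost its call without vehicle replicate 2 or 3. The list did not go 1 way: the complement gene *C3* had 250210, 182255 and 263770 in R159 livers, against 439293, 510285 and 423045 in vehicle livers. Its fold change was -0.99 (limma adjusted p = 0.0535), so it was not called, though the groups did not overlap. With the length trend removed 0 of the 15 were called.

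**Figure D4:**
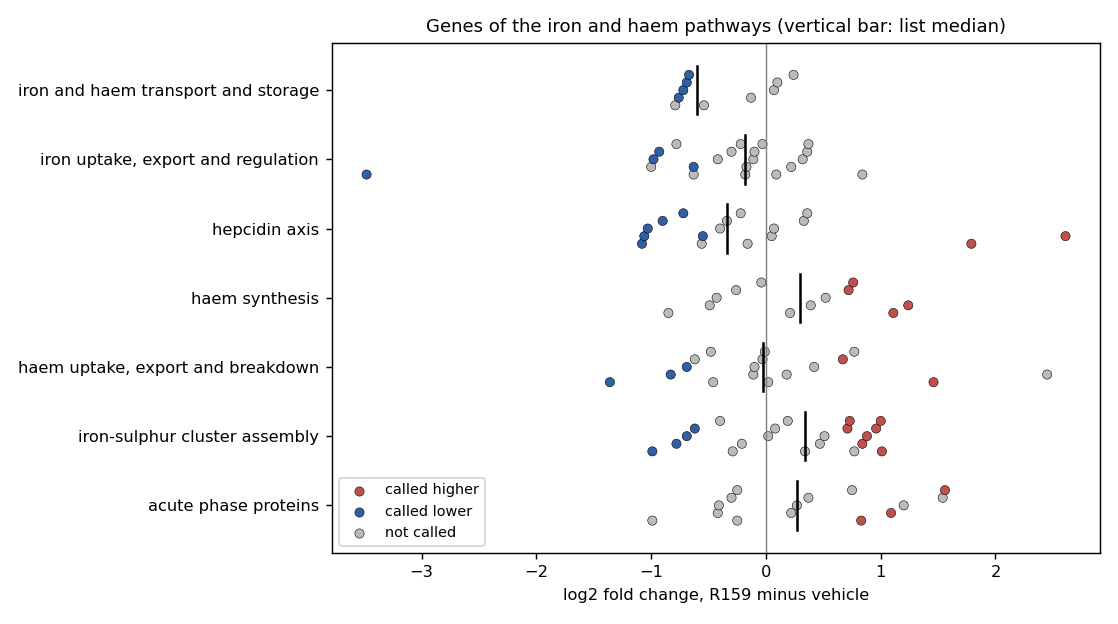
Log2 fold change, R159 minus vehicle (x axis), of each tested gene of 7 lists (rows; vertical offsets within a row only separate points), coloured by limma call; vertical bars mark list medians, from -0.61 for the 10 transport and storage genes to 0.34 for iron-sulphur cluster assembly. Called genes of haem synthesis lie to the right, and those of iron uptake, export and regulation to the left; the leftmost point is *Meltf* (-3.48), a gene of low values.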

How the data were processed

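Poly(A) RNA was made into stranded libraries and sequenced as paired reads of 50 bases, per the labels' protocols. The deposited values are a signal: estimated gene counts divided by 1 factor per sample by the authors, as the names and values of the deposited tables show. Build mm39 and the tools STAR 2.7.8a, R 4.2.3 and DESeq2 (version written as 3.5) come from the submitters' processing notes. Which counter and annotation were used is not given in the sources used here. The most frequent low value gave the value of 1 estimated read, and 67.8% to 76% of low values were whole within 0.02 reads, so no count test was used.

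The test was limma 3.58.1 (R 4.3.3) on log2(value + 1), with treatment in the model and a variance trend in the empirical Bayes step, over 16594 genes with a mean of at least 10. On this scale the change of low genes is understated. For the length correction, a lowess fit (span 0.3) of each library's deviations on log2 length was taken off, fitted to coding genes with a mean of at least 100; 13501 genes had a length. Lengths, overlaps and hairpins came from GENCODE M21 (GRCm38), another build than mm39. The fit was tested on simulated data. The members, lists and alternatives were chosen with earlier results of these data known. All members are named; of each pathway list the 2 called genes of smallest p in each direction, and 17 chosen genes, are named, except where a gene is not reported here; *Saa1*, *Meltf*, *Adgre1*, *Clec4f*, *Marco* and *Timd4* were added after their values were seen.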

Additional observations from a re-analysis of the deposited data

How the results depend on the processing

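Of the 10 members, 4 were called lower and 0 higher also with TMM rescaling, pseudocounts of 0.5 and 8, no filter, a minimum mean of 50 and a replicate block, and 3 (*Trf*, *Slc40a1* and *Aco1*) without the variance trend. With the length trend removed 1 was called lower, and leaving out 1 library gave 0 to 4 lower. Over all genes, 1443 were called lower without the variance trend, and 1309 higher and 1169 lower with the length trend removed; leaving out 1 library gave 918 to 2516 higher and 923 to 2909 lower, with the lowest counts without vehicle replicate 2. The libraries share only a replicate number: deviations of same-numbered libraries correlated at -0.0981, 0.0314 and 0.108. With the replicate block limma called 1912 genes higher and 2033 lower, and 1 acute phase gene lower.

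Reversed with the length trend removed were the ferritin to *Tfrc* ratio (-0.44), *Fth1* (-0.58), *Hp* (-0.12), *Hpx* (-0.18), *Tfr2* (0.08), *Slc39a14* (0.20), *Ireb2* (0.18), *Hfe* (0.06), *Fech* (0.08) and *Flvcr1* (0.30), none of them called. Without R159 replicate 2 *Fth1* (-0.07), *Tfr2* (0.04), *Slc39a14* (0.03) and *Flvcr1* (0.26) turned, without R159 replicate 3 *Hpx* (-0.09), and without vehicle replicate 2 *Flvcr1* (0.00). Without 1 library the ferritin to *Tfrc* difference was 0.41 to 0.80 and that of *Fth1* to *Ftl1* 0.15 to 0.30. Over the libraries left out, the ranges of these fold changes were -0.07 to 0.19 for *Fth1*, -0.09 to 0.16 for *Hpx*, -0.24 to 0.04 for *Tfr2*, -0.49 to 0.03 for *Slc39a14* and -0.18 to 0.26 for *Flvcr1*. The cause of these shifts was not tested.

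The same settings were run on the other lists after the data were seen. With the length trend removed the genes called higher and lower were 1 and 1 for iron uptake, 1 and 2 for the hepcidin axis, 2 and 0 for haem synthesis, 0 and 2 for haem uptake and breakdown, 3 and 3 for iron-sulphur assembly, and 0 and 0 for the acute phase. Without the variance trend 0 hepcidin axis genes and 1 haem uptake gene were higher. In that setting, and also with a minimum mean of 50, 1 acute phase gene was lower. Without 1 library the ranges, higher and then lower, were 0 to 1 and 1 to 5, 0 to 2 and 3 to 7, 3 to 5 and 0 to 1, 0 to 2 and 2 to 3, 3 to 10 and 2 to 4, and 1 to 6 and 0 to 0, in the order above.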
